A study of Caenorhabditis elegans with 2 samples.

Results

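The genes described here are 7 members of the DM-domain family of the nematode Caenorhabditis elegans: mab-3, mab-23, dmd-3, dmd-4, dmd-5, dmd-9 and dmd-10. Each was taken by name from the Ensembl gene models of the assembly WBcel235, together with 5 kb on each side, and every entry of the deposited peak lists that met this window was kept. They are 7 of 19973 protein-coding genes on the nuclear chromosomes. The chromatin came from strain RJP5356, in which CRISPR placed a GFP::AID::TEV::3xFLAG insertion in dmd-6 on chromosome IV (allele rp168), so that the tagged protein, DMD-6, is the product of another gene of the same family. Eggs from bleaching hatched into larvae that were starved at the first stage, and intact L4 animals, 1 stage before adulthood, were taken at 48 hours. DNA was recovered with an antibody against GFP and sequenced (ChIP-seq). The series holds 1 group of 2 biological replicates, all carrying the insertion. The sex of the animals is given as not collected, a control experiment that the labels name was not used here, and no test across samples can be made.

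DM-domain proteins bind DNA through a zinc-containing domain first known from Drosophila Doublesex and worm MAB-3, and they direct sexual differentiation in many animals. In worms, MAB-3 acts in the sensory rays of the male tail and represses yolk genes in the male intestine, MAB-23 acts in male tail and ray neuron development, and DMD-3 reshapes the tail tip of males together with MAB-3. DMD-4 acts in the phasmid neurons and DMD-5 in the AVG interneuron of males. TRA-1, the last step of the sex determination pathway, represses mab-3 and dmd-3 in hermaphrodites.

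The deposited files gave 8 peak lists. For each replicate alone and for 2 ways of joining both replicates, called the main and the conservative list here, there was a ranked list of all entries and a thresholded list of those with an irreproducible discovery rate (IDR) of 0.01 or less, which is 2 or more on the −log10 scale. The thresholded lists held 7338 peaks (main), 6626 (conservative), 6533 (replicate 1) and 4653 (replicate 2), and the ranked lists from 25335 to 37938 entries. Below, a peak is an entry of a thresholded list and an entry is a line of a ranked list. The signal is the value that the authors attached to each peak, and since its scale differs between lists it is read by rank within a list. Read numbers were not used here and the depth is unknown. In chromatin of whole animals, fewer cells with the protein at a site and less of it there in each cell cannot be told apart.

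Of the 7 genes, 4 had a main peak in the gene or within 5 kb (mab-3, dmd-4, dmd-5 and dmd-9), where 50.7% of all protein-coding genes had one. The same 4 had a peak in the conservative list (47.9% of all genes) and in replicate 1 (49.3%), and all but dmd-9 had one in replicate 2 (39.4%). An IDR of 0.001 or less also kept the 4 (43% of all genes). Narrowing the sides to 2 kb left mab-3 and dmd-5, or 2 of the 7 (35.1% of all genes), and widening them to 10 kb gave 6 (66.9%). Ranked entries were present at 6 of the 7 genes in each ranked list, all but mab-23, beside 77.8% of all genes in the main list, 77.2% in the conservative list, 77.7% in replicate 1 and 83.3% in replicate 2. These counts were close to the background share in each list. The main list held 7 such peaks, 4 of them at mab-3 and 1 at each of the others. The bases centred on each summit are shown because these are the places in the 7 windows with a main peak (plus strand of WBcel235, RefSeq copy). Capitals mark CTGCGT or TGATAA on either strand, or, for dmd-5, the bases of a tRNA gene.
mab-3 peak 1, chrII:9731895-9731995: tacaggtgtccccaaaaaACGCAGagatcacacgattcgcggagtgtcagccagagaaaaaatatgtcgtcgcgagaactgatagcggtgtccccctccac
mab-3 peak 2, chrII:9738954-9739054: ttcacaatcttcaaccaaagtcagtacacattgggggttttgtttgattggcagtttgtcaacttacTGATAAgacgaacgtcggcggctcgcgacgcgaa
mab-3 peak 3, chrII:9740752-9740852: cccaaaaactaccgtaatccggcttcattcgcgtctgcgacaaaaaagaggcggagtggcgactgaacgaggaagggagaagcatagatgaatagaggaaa
mab-3 peak 4, chrII:9741538-9741638: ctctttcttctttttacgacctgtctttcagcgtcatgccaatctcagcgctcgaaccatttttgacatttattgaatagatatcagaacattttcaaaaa
dmd-4 peak, chrX:14853940-14854040: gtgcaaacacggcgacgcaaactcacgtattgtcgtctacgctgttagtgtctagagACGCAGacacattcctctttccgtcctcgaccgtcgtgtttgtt
dmd-5 peak, chrII:5772945-5773045: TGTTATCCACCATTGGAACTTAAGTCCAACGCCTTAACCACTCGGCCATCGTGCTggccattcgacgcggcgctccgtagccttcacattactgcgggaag
dmd-9 peak, chrIV:3258626-3258726: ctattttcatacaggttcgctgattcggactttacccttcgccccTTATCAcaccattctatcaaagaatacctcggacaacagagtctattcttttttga

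Where these peaks lay differed from gene to gene. Only the first mab-3 peak lay at a start site of one of the 7 genes, by a rule that takes summits from 1000 bp upstream to 200 bp downstream; 19.1% of all protein-coding genes met that rule in the main list. mab-3 alone of the 7 met it in every thresholded list, beside 17.7% of genes in the conservative list, 18.2% in replicate 1 and 13% in replicate 2. Only the dmd-5 peak had its summit inside one of the 7 genes, as did 9.04% of protein-coding genes in the main list, 8.15% in the conservative list, 8.1% in replicate 1 and 6.16% in replicate 2; dmd-5 alone of the 7 met this rule in each of them. The dmd-4 and dmd-9 peaks lay at the start sites of neighbouring genes. The remaining 3 genes had no peak: dmd-3 and dmd-10 had entries below the threshold, and mab-23 had no entry of any kind.

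**Figure D1:**
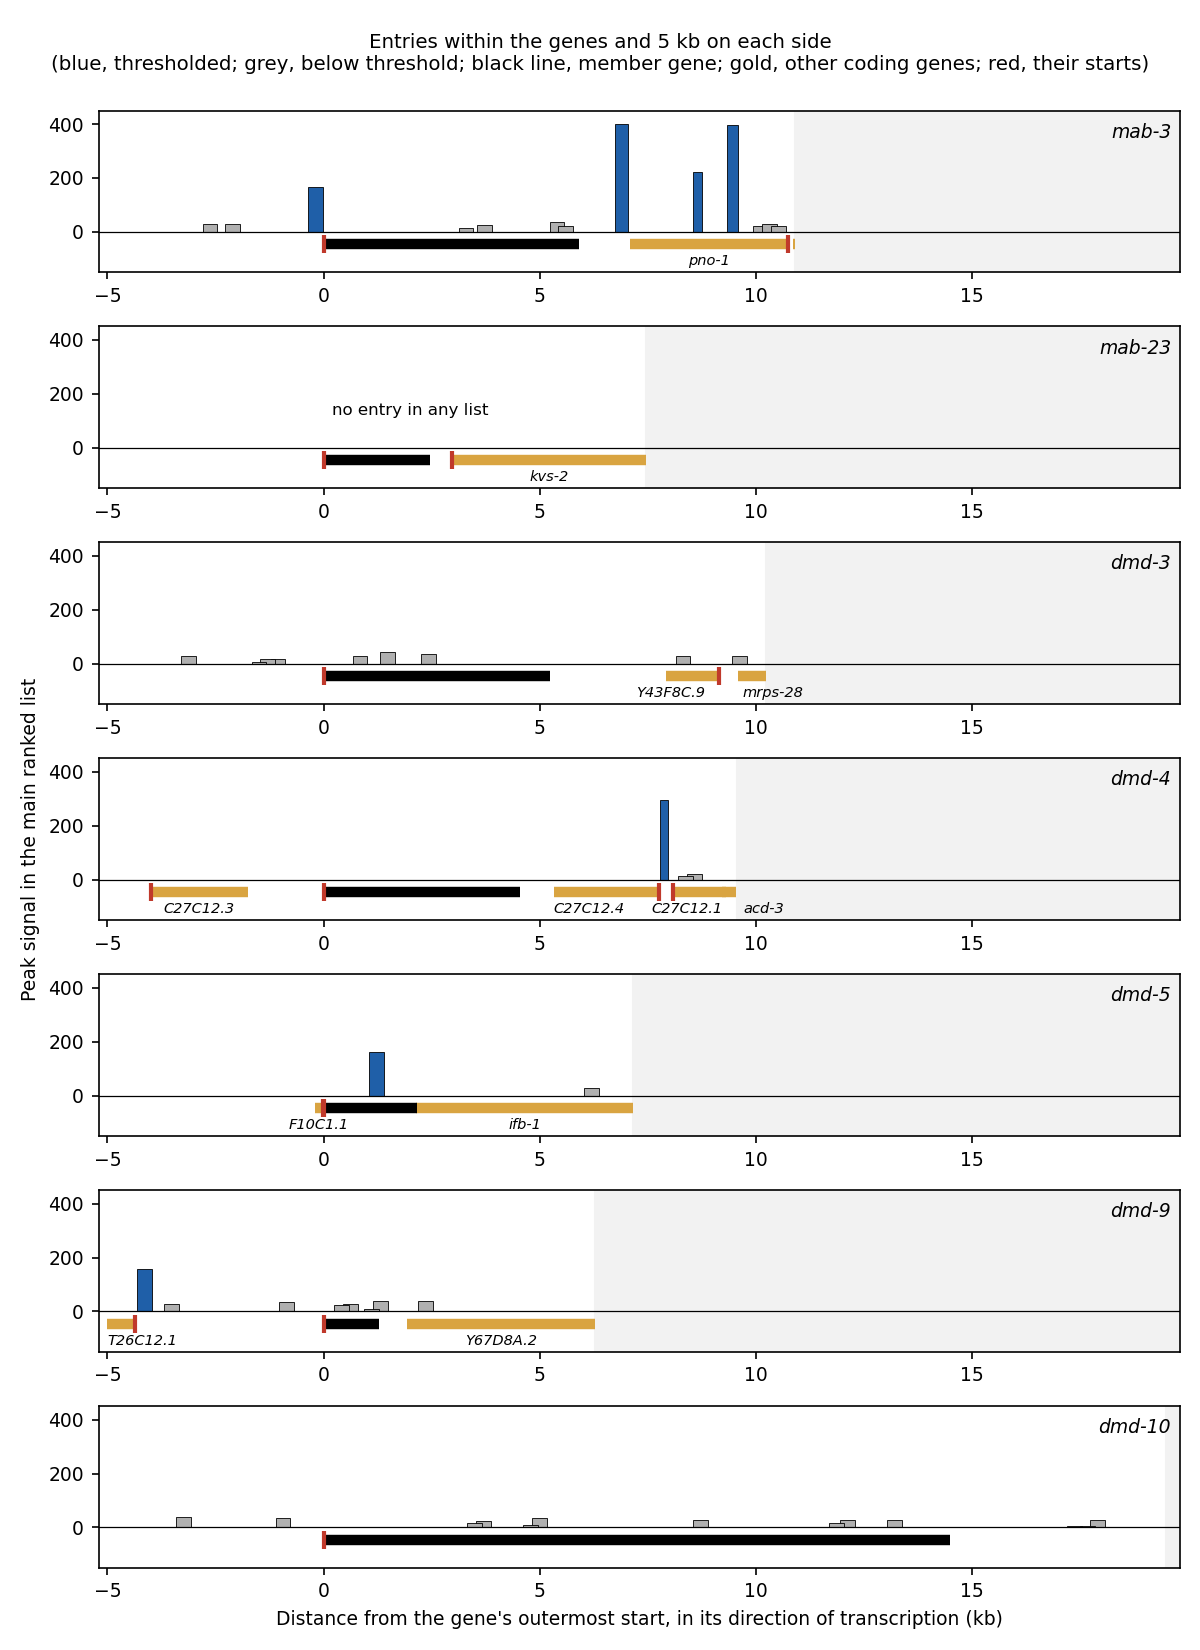
Signal of every entry of the main ranked list (y axis, the authors' signal) against distance from the gene's outermost start in its direction of transcription (x axis, kb) for the 7 genes and 5 kb on each side; blue bars are thresholded peaks, grey bars entries below the threshold, black lines the genes, gold lines other coding genes and red ticks their outermost start sites. The 7 blue bars run from 158 to 401 and the grey bars end at 44.7.

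The mab-3 gene (WBGene00003100, chrII:9732137-9738035, plus strand) had the most peaks of the 7, with 4 in every thresholded list. Peak 1 (chrII:9731773-9732116) had its summit 192 bp upstream of the first mab-3 start site, in sequence between genes. Its signal was 167 in the main list, which placed it at rank 2981 of 7338, with a −log10 IDR of 4.28. In the replicates the signal was 91.3 in replicate 1, at 53.1% of the list counted from the strongest peak, and 68.6 in replicate 2, at 61.2%. The peak at the mab-3 promoter was thus of middling strength in each list and the weakest of the 4.

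The other 3 mab-3 peaks lay beyond the 3′ end of the gene, on the side of pno-1, the next gene, which points toward mab-3 on the minus strand. Peak 2 (chrII:9738887-9739170) had its summit 969 bp past the end of mab-3, between the 3′ ends of the genes, 2845 bp from the nearest mab-3 start site and 3880 bp from that of pno-1. Its main signal of 401, at rank 594, was the highest of the 7 peaks. Its signal was 222 in replicate 1 (11.2% from the top) and 184 in replicate 2 (9.99%). Peak 4 (chrII:9741463-9741725) had a main signal of 395 at rank 630, with 210.5 in replicate 1 (12.5%) and 188 in replicate 2 (9.41%). Its summit lay in an intron of pno-1, 1296 bp inside the gene from its start. Peak 3 (chrII:9740690-9740888) lay in pno-1 as well, 2082 bp from the start, and its main signal of 223 stood at 26.4% from the top. Replicate 1 gave it 136.5 (29.5%) and replicate 2 gave it 83.8 (46.1%). Peaks 2, 3 and 4 were all at a −log10 IDR of 5, the highest in the list. Peaks 3 and 4 are nearer to the pno-1 start than to any mab-3 start, so the window alone joins them to mab-3.

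**Figure D2:**
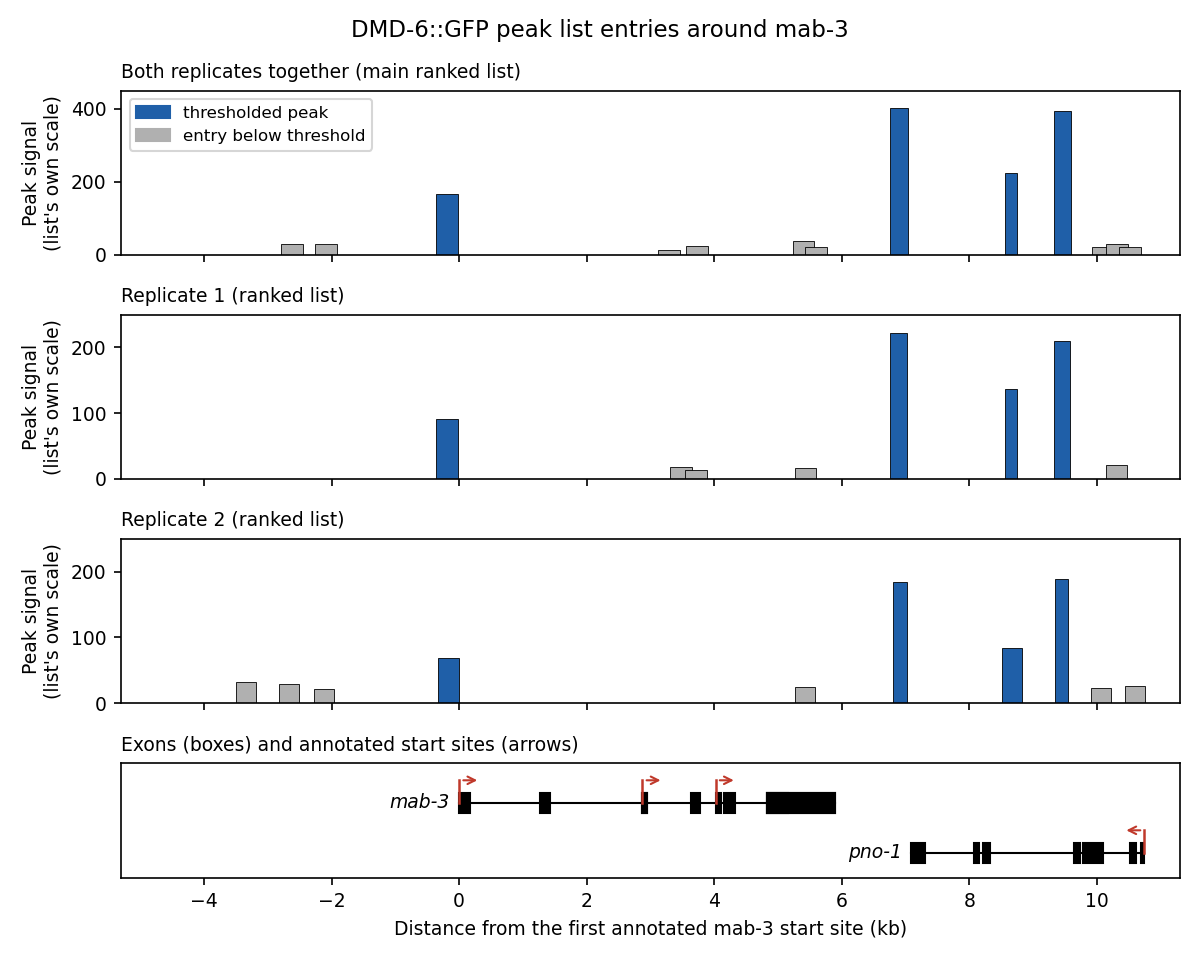
Thresholded peaks and ranked entries along mab-3 and 5 kb on each side in the main list and in each replicate (y axis, the authors' signal, own scale in each list; x axis, kb from the first mab-3 start), with the exons of mab-3 and pno-1 below. The same 4 positions stand out in all 3 lists, 1 at the first mab-3 start and 3 beyond its 3′ end.

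Around and between these peaks the main ranked list held 9 entries below the threshold in 6 separate stretches of the mab-3 window, with signals from 13.0 to 37.2. The strongest (chrII:9737365-9737708) lay in the 3′ UTR of mab-3 and had a −log10 IDR of 0.925, the highest in the main list of any entry below the threshold at the 7 genes. A further entry (chrII:9735690-9736033, signal 24.2) lay 297 bp upstream of the last of the 3 annotated mab-3 start sites. Of the 9 entries, 5 were met by a ranked entry of both replicates. These 5 are not separate sites: those in the 3′ UTR of mab-3 overlap each other, as do those in pno-1, and they share replicate entries.

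The dmd-4 gene (WBGene00007776, chrX:14857303-14861852, minus strand) had 1 peak, and it lay 3313 bp past its 3′ end (chrX:14853891-14854075). The summit sat between the divergent start sites of C27C12.4, 96 bp away, and C27C12.1, 228 bp away. The main signal was 297 (rank 1161), with 170.0 in replicate 1 (19.98% from the top) and 123 in replicate 2 (24.3%). The summits of the replicates were 2 bp apart. At the dmd-4 start itself the main list held nothing, and the ranked list of replicate 2 held an entry 75 bp upstream of it, with a signal of 22.8 and a −log10 IDR of 0.131, the lowest value in that list.

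The dmd-5 gene (WBGene00017326, chrII:5772054-5774220, minus strand) carried its peak (chrII:5772823-5773166) in an intron, 1225 bp downstream of its start. The summit lay inside a tRNA gene, WBGene00022984, of 84 bp on the minus strand (chrII:5772916-5772999), and inside the non-coding RNA F10C1.18. The main signal was 161 (rank 3115), with 90.7 in replicate 1 (53.6%) and 72.3 in replicate 2 (57.6%), and the replicate summits were 2 bp apart. Of all main summits, 3.33% lay in a tRNA gene. Of 612 annotated tRNA genes, 39.9% held a main summit, and these 244 summits had a median signal of 138 (quartiles 111 and 189), so the dmd-5 peak was within the middle range of peaks on tRNA genes. tRNA genes occur in near-identical copies, and the sources used here do not say how reads that match several copies were placed. The part of this in the dmd-5 value was not tested. Without peaks on tRNA genes, an alternative chosen after seeing the data, dmd-5 had none and 3 of the 7 genes kept a peak, where 49.5% of protein-coding genes had one.

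The dmd-9 gene (WBGene00022060, chrIV:3253261-3254543, minus strand) had its peak (chrIV:3258504-3258847) 4133 bp upstream of its start and 234 bp upstream of the start of the divergent gene T26C12.1. The microRNA gene cel-mir-270 (chrIV:3258455-3258549) lay 127 bp from the summit. The main signal was 158 (rank 3192), and that in replicate 1 was 112 (40.9% from the top). In replicate 2 the position was below the threshold, with a signal of 45.0 and a −log10 IDR of 0.262. No other of the 7 peaks was missing from the thresholded list of replicate 2. Over dmd-9 itself the main ranked list held entries in the coding exons and at the 3′ end, the strongest at 39.1 (chrIV:3253049-3253392), and an entry of 40.5 lay in an intron of Y67D8A.2 (chrIV:3252021-3252364) with an entry in both replicates.

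The dmd-3 gene (WBGene00012832, chrV:19650025-19655251, minus strand) had no peak but 9 entries below the threshold in 7 stretches. Both of the strongest lay in introns. The first (chrV:19653593-19653936) had a main signal of 44.7 and was met by an entry of replicate 2 (25.3) and by none of replicate 1. The second (chrV:19652650-19652993) lay 76 bp upstream of the internal dmd-3 start site and had a main signal of 37.6, with 17.1 in replicate 1 and 20.2 in replicate 2. Their −log10 IDR values of 0.398 and 0.547 were far from the threshold of 2. The nearest main peak was 5691 bp downstream of dmd-3, close to mrps-28, a gene for a protein of the mitochondrial ribosome, with a signal of 77.4.

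The dmd-10 gene (WBGene00007929, chrV:13222116-13236607, minus strand) is the longest of the 7 and had 13 entries below the threshold in 8 stretches, with main signals from 3.57 to 37.9. The strongest (chrV:13239683-13240026) lay 3248 bp upstream of its start with a −log10 IDR of 0.889. Of the 13, 0 were met by entries of both replicates and 7 by an entry of neither. Replicate 1 held 1 ranked entry in the window and replicate 2 held 5. The nearest main peak was 6761 bp upstream, close to odr-3, a G protein subunit gene of olfactory neurons, with a signal of 157.

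The mab-23 gene (WBGene00003114, chrV:10633058-10635525, plus strand) had 0 entries in all 8 lists, in the gene and 5 kb on each side. The same was true of 11.9% of protein-coding genes. The nearest main peak lay 42566 bp upstream (chrV:10590149-10590492, signal 82.6), and 4.38% of protein-coding genes were farther from a peak. Its window also holds the start of kvs-2, a potassium channel subunit gene, and no entry lay there either.

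The replicates placed the 7 peaks alike, with summits 2 to 33 bp apart, the dmd-9 summit of replicate 2 being that of its ranked entry. Of the 7, 6 met a thresholded peak of both replicates, compared with 58.5% of all main peaks, and all 7 met a ranked entry of both, compared with 96.4%. The IDR scores reproducibility, so the threshold itself sets part of any contrast in replicate support between peaks and weaker entries. Of the 41 entries below the threshold in the 7 windows, 8 (19.5%) met a ranked entry of both replicates. Of all 30427 such entries, 33.5% did. The 41 lay in 28 separate stretches, and overlapping entries that met the same replicate entry were each counted. The median signal of the 41 was 26.8, beside 27.7 for all entries below the threshold. The lowest −log10 IDR of the list, 0.131, was held by 23 of the 41, and by 47.6% of all main entries below the threshold. The main thresholded list had a median signal of 141 and 5% of it lay under 40.7, so the strongest of the 41, at 44.7, was as high as the weakest peaks. The mab-3 peak 1, the dmd-5 peak and the dmd-9 peak were 344 bp wide, the width of 59.4% of main peaks, and the other 4 were narrower.

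**Figure D3:**
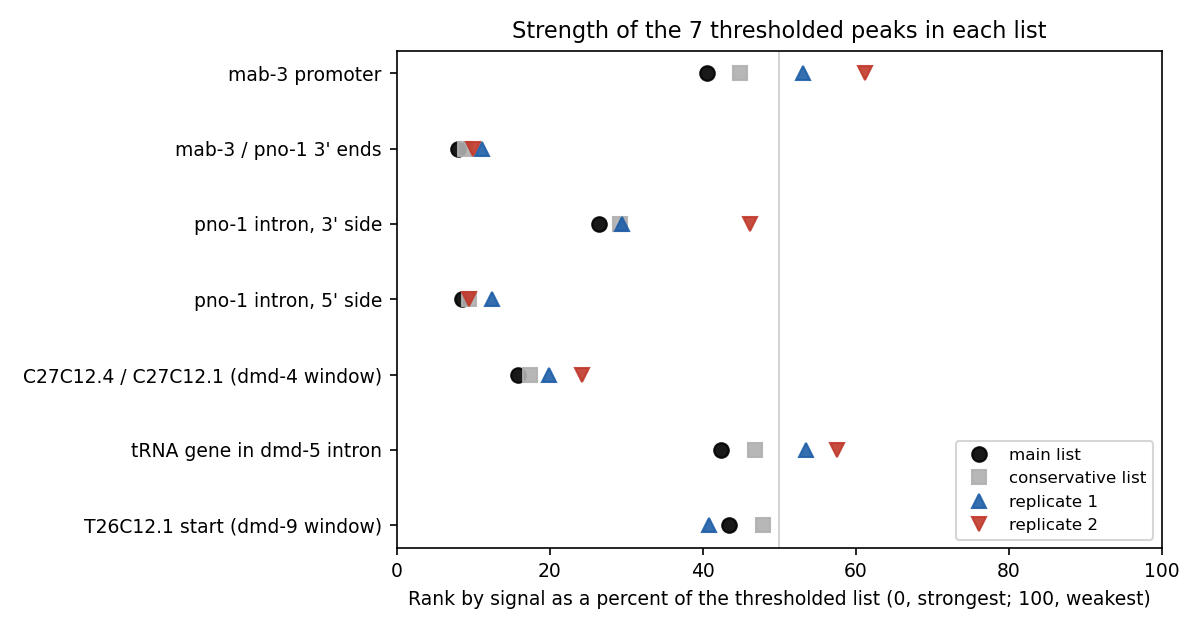
Rank of each of the 7 peaks as a percent of its own thresholded list (x axis, 0 is the strongest, the grey line is the middle) in the main list, the conservative list and each replicate. The top 4 lines are peaks 1 to 4 of mab-3, named by where they lie. Peaks 2 and 4 lie between 8.09 and 12.5 in every list, peak 1 of mab-3 and the dmd-5 peak between 40.6 and 61.2, and the dmd-9 peak has no value in replicate 2.

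Peaks were also present at 3 other DM-domain genes set beside the 7. A further gene of the family, dmd-11, was not counted. dmd-6, the tagged gene, had 7 main peaks and 31 ranked entries in the gene and 5 kb on each side, dmd-7 had 7 and 14, and dmd-8 had 3 and 6. The dmd-7 peaks include a pair of overlapping calls with the same start (signals 558 and 10.9), each counted here and in the densities below. The windows of the 7 ran from 11.28 kb at dmd-9 to 24.5 kb at dmd-10, so counts were also taken per length. Per 10 kb of window, the main list held 2.52 peaks at mab-3, 0.886 at dmd-9, 0.822 at dmd-5 and 0.687 at dmd-4, and 0 at the rest, beside 4.03 at dmd-6, 4.51 at dmd-7 and 2.53 at dmd-8. The median protein-coding gene had 0.420, and 8.32% had a higher density than mab-3. Ranked entries gave another order, with 8.18 per 10 kb at mab-3, 7.09 at dmd-9, 5.91 at dmd-3, 5.31 at dmd-10, 2.06 at dmd-4, 1.64 at dmd-5 and 0 at mab-23, around a median of 3.27. dmd-3 and dmd-10, which had no peak, were thus above the median gene in ranked entries of the main list, but not in every list. In replicate 1 dmd-3 had 1.97 and dmd-10 0.408 per 10 kb, both under the median of 2.15, and in replicate 2 dmd-3 had 5.25 and dmd-10 2.04 around a median of 2.66. The distance from gene to nearest main peak was 0 bp at dmd-5, 21 bp at mab-3, 3228 bp at dmd-4 and 3961 bp at dmd-9, all under the median of 4844 bp, and above it at dmd-3, dmd-10 and mab-23. None of these differences between genes was tested.

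**Figure D4:**
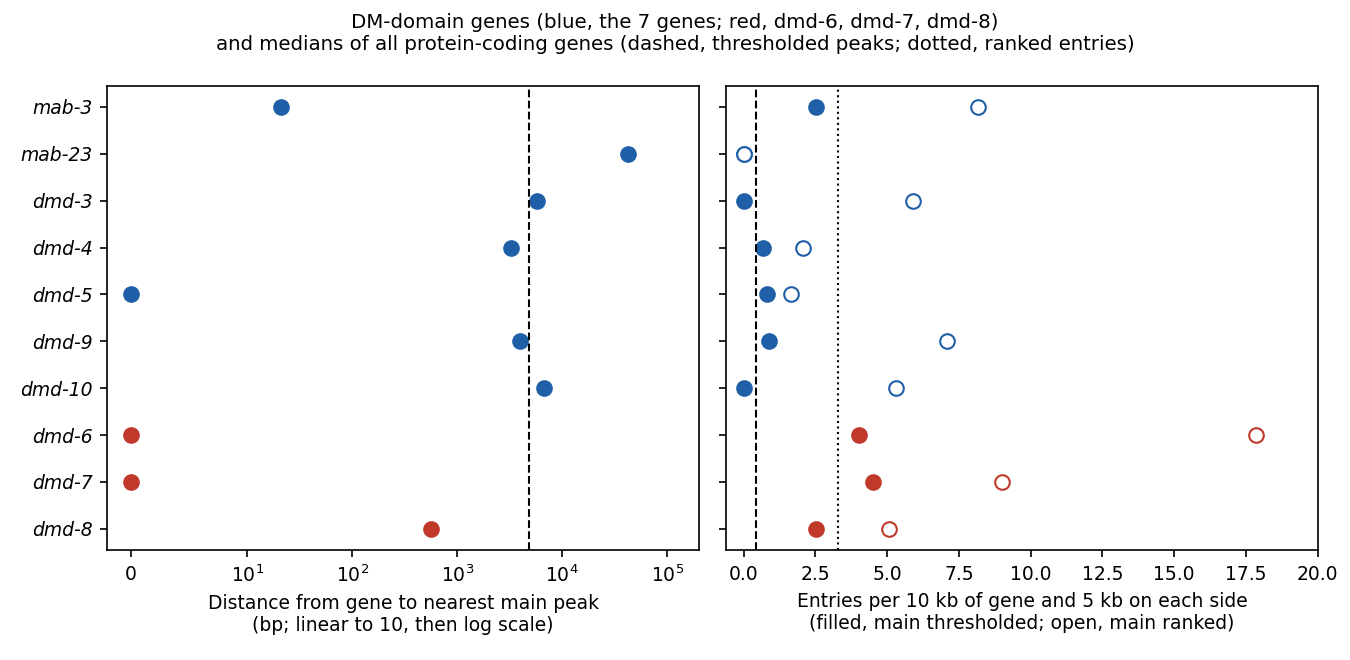
Distance from each DM-domain gene to the nearest main peak (left, bp, linear to 10 and then log scale) and entries per 10 kb of gene and 5 kb on each side (right; filled, main thresholded; open, main ranked), for the 7 genes in blue and dmd-6, dmd-7 and dmd-8 in red. Dashed and dotted lines are medians of all protein-coding genes (4844 bp; 0.420 and 3.27 per 10 kb), and mab-23 stands apart at 42566 bp with no entry.

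Short words were searched on both strands in the stretches printed above and in equal stretches at all other summits; none of the words holds another. ACATTGT, the core of sites bound by DM-domain proteins in many animals, was in 0 of the 7 and in 1.87% of all main peaks. In equal windows 350 bp to the left of the summits it was in 1.91%. ACATTGT was also in 0 of the 7 over the whole peak, compared with 5.90% of all. The 7 windows hold it 22 times in all, 7 of them at dmd-10 and 5 at mab-3. Per 10 kb of window the rate ran from 0 at dmd-9 to 3.14 at mab-3, with 2.86 at dmd-10, beside 1.88 over the genome. Entries of the main ranked list below the threshold held 2 of the 22 at mab-3 and 1 at dmd-4. The mab-3 entry 297 bp upstream of the last start site, described above, held the word near its summit, as did a replicate 1 entry there. That replicate 1 entry was weak, with a signal of 13.7 at 88.9% of the ranked list from the top. Replicate 2 held no entry there. TTGCGA, part of the site bound by MAB-3, was in 0 of the 7, in 5.08% of all and in 3.34% of the windows to the left. Peak 2 of mab-3 held it farther out, at -64 and -107 bp from the summit. TGATAA, the site of intestinal GATA factors, was in 2 of the 7, compared with 31.4% of all and 9.13% of equal windows 350 bp to the left of the summits. In the dmd-9 peak its centre was 2 bp from the summit and in peak 2 of mab-3 20 bp. CTGCGT, a word picked after the sequences were seen, was in peak 1 of mab-3 and in the dmd-4 peak, and in 10.1% of all main peaks against 2.22% of the windows to the left. The printed stretches held 35.6% G and C in peak 4 of mab-3 and 55.4% in the dmd-5 peak, the extremes of the 7, around a median of 41.6% for all main peaks. A match is a description of the letters and not a measured contact.

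A list of 18 genes held genes known to act with DM-domain genes in male development, and vit-2 as a target of MAB-3. Of the 18, 11 (61.1%) had a main peak in the gene or within 5 kb, beside the 50.7% of all protein-coding genes given above. Each replicate alone gave 10 (55.6%), though not the same 10, beside 49.3% of all genes in replicate 1 and 39.4% in replicate 2. Upstream in sex determination, peaks lay near xol-1, the first switch of the pathway (strongest signal 519.7, upstream of the gene), near the ligand gene her-1 (131, at the start of ztf-9), the receptor gene tra-2 (363, at the start of ceh-38), fem-3 (208, nearest to aly-1) and the zinc finger gene tra-1, with 7 peaks (strongest 188). The tra-1 window is 34.3 kb long, and it held 5 peaks of the conservative list, 4 of replicate 1 and 2 of replicate 2. The main list gave none at fem-1 or fem-2, while the conservative list gave 2 at fem-2. Replicate 1 alone gave none at her-1. Among genes of tail, rays and timing, lin-41 had 4 peaks (strongest 233) and lin-28, an RNA-binding regulator of timing, had 3 (242). The zinc finger gene lin-29 had 3 weak ones (82.8), and neither the conservative list nor replicate 2 had any there. tlp-1, which acts in the tail tip, had a strongest main signal of 250.4. Each replicate alone had 1 peak in the tlp-1 window, at rank 5934 of 6533 in replicate 1 and at rank 1106 of 4653 in replicate 2. Whether these are the same site was not examined. lin-32, a proneural gene of the rays, had its strongest (219) on a tRNA gene. The Hox genes egl-5 and mab-5, the nuclear receptor gene nhr-25, the T-box gene mab-9 and the cell fusion gene eff-1 had none. The yolk gene vit-2, a target that MAB-3 represses in males, had 4 main peaks, the strongest (339, rank 878) 96 bp upstream of its start.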

How the data were processed

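ChIP-seq for GFP-tagged DMD-6 was measured in 2 biological replicates of 1 group, with replicate numbers from the labels. The authors deposited 8 peak lists on ce11, per the labels, the same assembly as WBcel235. The aligner and peak caller were not given in the sources used here. Signal values were deposited for every peak without their formula. The −log10 IDR was read from the ranked lists the authors deposited. Gene models came from Ensembl release 115 and sequence from the RefSeq copy of WBcel235.

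An entry counted for a gene when it overlapped the gene or 5 kb on each side by at least 1 bp. Ranks run from the highest signal of a list. Counts were set beside the share of all 19973 protein-coding genes by the same rule, without tests, in Python 3.11.15 with pandas 2.3.3 and numpy 2.4.6. The overlap counting was tested on simulated data. All 7 genes were named, with every peak and, where a gene had none, its strongest entries; for each peak the gene with the nearest start was named, and of the 18 genes of the male pathway those with a peak. The genes, lists and words were chosen with earlier results of these data known. Replicates share a strain, and no p-values were computed.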

Additional observations from a re-analysis of the deposited data

How the results depend on the processing

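Main counts were 4 of the 7 genes and 7 peaks. Both were the same with the conservative list, with an IDR of 0.001 or less, and when the summit had to lie in the window. The 7 conservative peaks had the same positions and signals as the main ones, so they are not a separate measurement. Without 1 replicate the counts ran from 3 to 4 genes and from 6 to 7 peaks. With 2 kb on each side they were 2 genes and 3 peaks, and with each peak given to the gene with the nearest start again 2 genes and 3 peaks (mab-3 and dmd-5). With 10 kb the peaks were 14, and in the full ranked list 48, at 6 genes each. Without summits in tRNA genes, added after seeing the data, 3 genes and 6 peaks were left. Peaks found in both replicates were 6, or 7 with ranked replicate lists, and ACATTGT stayed at 0 in every window length. As a percent of the list from the top, the strongest peak of mab-3 was at 8.09 and without 1 replicate at 9.41 to 11.2, that of dmd-4 at 15.8 and 19.98 to 24.3, and that of dmd-5 at 42.5 and 53.6 to 57.6. In the conservative list dmd-5 was at 46.9, which is rank 3105 of 6626, beside rank 3115 of 7338 in the main list. The dmd-9 peak was at 43.5, in the conservative list at 47.9, and without replicate 2 at 40.9, with no value without replicate 1. The lists differ in length, and the cause of these moves was not tested. No paired analysis was possible because the series has 1 group. Depth is unknown, so how far it limits the weak entries was not tested.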
